A study of Mus musculus with 4 samples.

Results

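The core of the Notch transcription complex was followed here: the Mastermind co-activators (Maml1, Maml2, Maml3), the DNA-binding factor Rbpj, the acetyltransferases Ep300, Crebbp, Kat2a and Kat2b, and the corepressor Spen. These 9 genes were listed by name, and every probe set whose platform annotation gave exactly 1 of these symbols was taken. That rule found 19 probe sets for 8 of the 9 genes, out of 34945 probe sets and 18193 genes named in this way. For Maml3 the rule found 0 probe sets, so its expression was not analysed here. Where a gene had several, the one with the highest average over the 4 arrays represents it and is called the lead probe set.

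RNA was measured on Affymetrix arrays in T29, a mouse thymic lymphoma line described in the design text as lacking Ikaros. Every sample carried MigR1-MLER, a retroviral vector with an inducible dominant-negative Mastermind. The groups were cells given 100 nM 4OHT for 24 h (2 arrays) and cells given ethanol for 24 h (2 arrays). 4OHT, 4-hydroxytamoxifen, binds the ligand-binding domain of the oestrogen receptor and is used to switch on proteins fused to it. No cells without the construct were analysed, so the action of 4OHT itself and that of the induced protein cannot be told apart. Which promoter drives the construct, and whether the transduced cells were 1 clone or a pool, was not stated in any source used here. The labels also do not say whether replicates were separate cultures, so the p-values rest on a spread between samples that may be only technical.

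When a Notch receptor is cut after binding its ligand, its intracellular domain enters the nucleus and joins RBPJ on DNA. A Mastermind protein then packs against both and brings in p300 (Ep300) and CBP (Crebbp), which acetylate histones. GCN5 (Kat2a) and PCAF (Kat2b) are a second pair of related acetyltransferases, best known as alternative catalytic subunits of the SAGA and ATAC complexes. Without the Notch domain, RBPJ is held by corepressors, of which SPEN (also called MINT) is one. Dominant-negative Mastermind is an N-terminal piece that still binds Notch and RBPJ but lacks the part that recruits the acetyltransferases. In developing T cells this pathway drives genes such as Dtx1, Hes1 and Ptcra.

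Values are log2 expression levels after RMA, the authors' normalization. Changes are differences of log2 levels, 4OHT minus ethanol, over 2 arrays in each group, and ± gives the standard error (SE) that limma estimated. A gene was tested if its lead probe set averaged at least 4.81, the 40th percentile over named probe sets, and called at a Benjamini-Hochberg adjusted p under 0.05 over all 11581 genes tested. Other probe sets were read from a second fit of all 20967 probe sets above the same level. Levels of different probe sets are not comparable with each other and are not ranked.

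Of the members, 7 genes and 16 probe sets were tested, and 1 gene was called: Kat2a was lower with 4OHT. Over all genes tested, 7.47% were called in either direction, 3.57% lower and 3.90% higher. An unadjusted p under 0.05 was found for 4 of the 7 members (Kat2a, Ep300, Crebbp and Kat2b), against 25.5% of all genes tested. The 4OHT and ethanol values did not overlap for 5 of the 7, against 56.9% of all genes tested. The median change over the 7 was 0.20, beside -0.01 over all genes tested. Among the 16 probe sets, 2 were called (4.02% of all probe sets tested). They were 1 of Kat2a, lower (1.59% of all), and 1 of Kat2b, higher (2.43% of all). An unadjusted p under 0.05 was found for 6 (22.7% of all), and the groups did not overlap for 10 (54.3% of all).

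**Figure D1:**
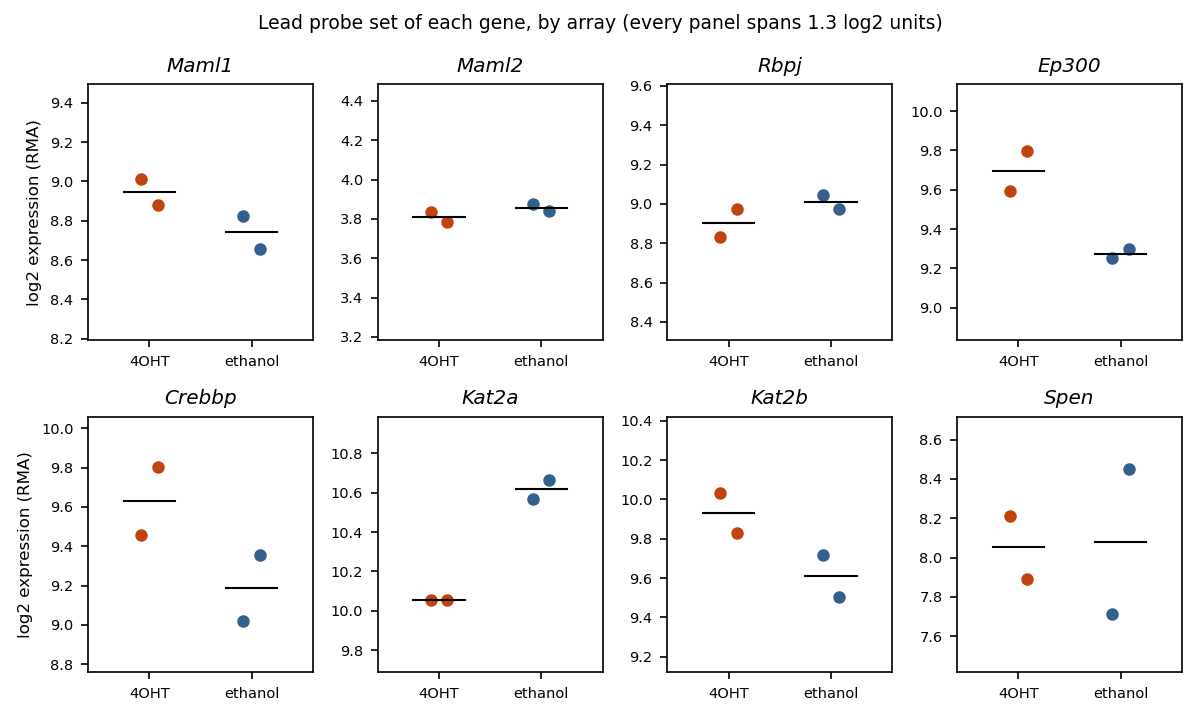
Log2 expression of the lead probe set of the 8 genes with data, 1 panel per gene, each with a vertical axis of the same span around its own mean. Points are arrays (replicate 1 left, replicate 2 right) in 4OHT and ethanol cells, and black bars are group means. Kat2a lay at 10.05 and 10.06 with 4OHT, below 10.57 and 10.67 with ethanol, Ep300 and Crebbp lay higher with 4OHT on both arrays, and the Spen and Rbpj groups overlapped.

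The region before the annotated start of the acetyltransferase pair Kat2a and Kat2b is shown because these were the 2 genes with a called probe set, in opposite directions. Sequences are from RefSeq on GRCm38.p6, 250 bases ending just before the start, read 5′ to 3′ on the gene's strand. Capitals mark TGGGAA, the core that RBPJ binds, on either strand, so that TTCCCA is the same core on the opposite strand.
Kat2a, chr11:100712468-100712717, minus strand: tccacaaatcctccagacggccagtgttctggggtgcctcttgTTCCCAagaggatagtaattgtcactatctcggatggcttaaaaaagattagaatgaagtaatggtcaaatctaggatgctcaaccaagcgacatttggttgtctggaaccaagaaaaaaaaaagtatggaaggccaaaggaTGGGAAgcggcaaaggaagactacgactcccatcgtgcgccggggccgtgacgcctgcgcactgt
Kat2b, chr17:53566721-53566970, plus strand: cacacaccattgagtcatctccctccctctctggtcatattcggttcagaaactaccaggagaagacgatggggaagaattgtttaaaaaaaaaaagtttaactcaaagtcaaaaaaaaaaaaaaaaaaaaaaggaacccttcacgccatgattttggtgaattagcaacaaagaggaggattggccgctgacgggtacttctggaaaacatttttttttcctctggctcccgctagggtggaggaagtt
The Kat2a window held TGGGAA at 2 places, with 59 and 201 bases between the match and the start. The Kat2b window shown, and that of a second annotated start of Kat2b, held none. All 9 members were found in the table, with 12 windows in all, and 6 windows of 5 genes (Maml2, Maml3, Rbpj, Kat2a and Spen) held the core. The windows of both Rbpj starts overlap, and the same opposite-strand match lies in each of them. Of all 32851 windows of this length, 21.6% held it. The longer form GTGGGAA, which contains the core, was found in 1 member window, that of Spen, with 2 bases between the match and the start, and in 5.42% of all windows. The MYC E-box CACGTG, which is its own reverse complement, was in none of the 12 windows and in 6.02% of all. A match of these letters is a description of the window and not a binding site.

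Mastermind itself showed no called change at either tested Maml1 probe set. The lead Maml1 probe set, 1426769_s_at, read 9.01 and 8.88 in 4OHT cells, against 8.82 and 8.66 in ethanol cells. Both 4OHT values were above both ethanol values. The change was 0.20 ± 0.10 (SE), with a 95% interval of -0.055 to 0.47 and a limma adjusted p of 0.285.

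The second Maml1 probe set, 1452188_at, was designed from the same source sequence and is therefore not independent of the first. It read 7.56 and 7.45 with 4OHT, against 7.36 and 7.51 with ethanol. Here the groups overlapped, and the change was 0.07 ± 0.11 (95% interval -0.20 to 0.34, limma adjusted p = 0.736). The third, 1441697_at, was at 3.40 and 3.31 with 4OHT, against 3.53 and 3.36 with ethanol, below the testing level on every array. With the mean of the 3 probe sets in place of the lead, the Maml1 change was 0.06. The construct carries a piece of Mastermind in both groups, and which part of the transcript each probe set reads was not analysed here. Whether these levels include RNA of the construct therefore cannot be told, and they do not measure the induced protein.

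Maml2, a paralog of Maml1, had 1 probe set, which read 3.83 and 3.78 in 4OHT cells, against 3.88 and 3.84 in ethanol cells. All 4 values lay below the testing level, so Maml2 was not tested. RMA gives no detection call, and a level this low sets no bound on the amount of transcript.

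Rbpj, the factor through which every Notch receptor reaches DNA, had no called change at any of its 3 probe sets. The lead, 1454896_at, read 8.83 and 8.98 with 4OHT, against 9.05 and 8.97 with ethanol. These values overlapped, and the change was -0.11 ± 0.095 (95% interval -0.34 to 0.13, limma adjusted p = 0.532). That interval rests on the spread between these 4 arrays, which may be only technical. It sets no firm bound on a fall in Rbpj.

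The other Rbpj probe sets were designed from 1 shared source sequence. The first of them, 1448957_at, read 8.65 and 8.87 with 4OHT, against 8.83 and 8.71 with ethanol, a change of -0.0090 ± 0.12 (limma adjusted p = 0.974). The second, 1418114_at, read 8.24 and 8.36 with 4OHT, against 8.35 and 8.30 with ethanol, a change of -0.028 ± 0.099 (limma adjusted p = 0.897). At all 3 probe sets the 4OHT and ethanol arrays were interleaved, and all 3 changes were slightly below 0. The mean of the 3 gave a change of -0.047.

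The Mastermind-recruited acetyltransferases p300 and CBP both had higher lead probe set values on the 4OHT arrays than on the ethanol arrays, but neither passed the test. Ep300 read 9.59 and 9.80 in 4OHT cells, against 9.25 and 9.30 in ethanol cells. Both 4OHT values lay clearly above both ethanol values, and the change of 0.42 ± 0.10 corresponds to 1.34-fold (95% interval 0.16 to 0.68). Its limma p was 0.00781 before adjustment and 0.073 after it, the lowest among the members that were not called.

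Crebbp was read by 4 probe sets. The lead, 1435224_at, was at 9.46 and 9.80 in 4OHT cells, against 9.02 and 9.36 in ethanol cells. Replicate 2 was the higher array in both groups, so that the lower 4OHT value stood only slightly above the higher ethanol value. The change was 0.44 ± 0.17 (1.36-fold, 95% interval 0.025 to 0.86, limma adjusted p = 0.176). It lay between 0.27 and 0.62 when 1 array was left out.

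Of the remaining Crebbp probe sets, 1434633_at read 7.96 and 8.14 with 4OHT, against 7.66 and 7.86 with ethanol, a change of 0.28 ± 0.12 (limma adjusted p = 0.251). The probe set 1436983_at read 6.66 and 7.29 with 4OHT, against 6.67 and 6.89 with ethanol, and its groups overlapped (0.20 ± 0.22, limma adjusted p = 0.649). The changes of all 3 tested probe sets were above 0, and they were not of the same size. The fourth, 1459804_at, lay between 2.98 and 3.22 on all arrays and was not tested. With the mean of the 4 probe sets the Crebbp change was 0.22.

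Kat2a, which encodes GCN5, was the called member. Its lead probe set, 1426783_at, read 10.06 and 10.05 in 4OHT cells, against 10.57 and 10.67 in ethanol cells, means of 10.05 ± 0.0021 and 10.62 ± 0.069 (SD, n = 2 each). Kat2a fell by 0.56 ± 0.087 on the log2 scale with 4OHT, 1.48-fold (95% interval -0.78 to -0.34, limma adjusted p = 0.0284). The 2 arrays of each group lay much closer together than the groups did.

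The other Kat2a probe sets, which share a source sequence, were lower with 4OHT on both arrays but were not called. The probe set 1422972_s_at read 9.27 and 9.28 with 4OHT, against 9.62 and 9.79 with ethanol (-0.43 ± 0.10, 95% interval -0.69 to -0.16, limma adjusted p = 0.0889). The probe set 1422971_at read 6.63 and 6.76 with 4OHT, against 6.97 and 7.07 with ethanol (-0.32 ± 0.10, 95% interval -0.58 to -0.063, limma adjusted p = 0.148). The lead had an adjusted p of 0.0462 in that fit of all probe sets. The Kat2a gene call was lost when any 1 array was left out, with a limma adjusted p of 0.136 without 4OHT replicate 1, 0.110 without 4OHT replicate 2, 0.0901 without ethanol replicate 1 and 0.101 without ethanol replicate 2. The change in these 4 fits, which have 1 residual degree of freedom, lay between -0.61 and -0.51.

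Kat2b, the paralog that encodes PCAF, had levels above those of ethanol cells at all 3 probe sets, and 1 probe set was called. The lead, 1434037_s_at, read 10.03 and 9.83 in 4OHT cells, against 9.72 and 9.50 in ethanol cells. The groups did not overlap, and the change of 0.32 ± 0.12 (1.25-fold, 95% interval 0.015 to 0.62) did not pass (limma adjusted p = 0.179). With the mean of the 3 probe sets the Kat2b change was 0.46 (limma adjusted p = 0.0727), and with 1450821_at as the lead it was 0.23. Leaving out 1 array moved the change of the lead to between 0.21 (without ethanol replicate 2) and 0.43 (without ethanol replicate 1). Kat2b is therefore not among the genes called.

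The called Kat2b probe set was not the lead. This probe set, 1457809_at, read 6.16 and 5.95 with 4OHT, against 5.12 and 5.35 with ethanol, and rose by 0.82 ± 0.13 (1.77-fold, 95% interval 0.49 to 1.16, limma adjusted p = 0.0413 over all probe sets). The third, 1450821_at, read 7.38 and 6.96 with 4OHT, against 6.94 and 6.94 with ethanol, so that 4OHT replicate 2 was almost level with ethanol (0.23 ± 0.16, limma adjusted p = 0.451). Whether the 3 probe sets differ in their change was not tested. The call of 1457809_at was lost without 4OHT replicate 1 (limma adjusted p = 0.224), 4OHT replicate 2 (0.141), ethanol replicate 1 (0.131) or ethanol replicate 2 (0.0797), with changes from 0.70 to 0.94.

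**Figure D2:**
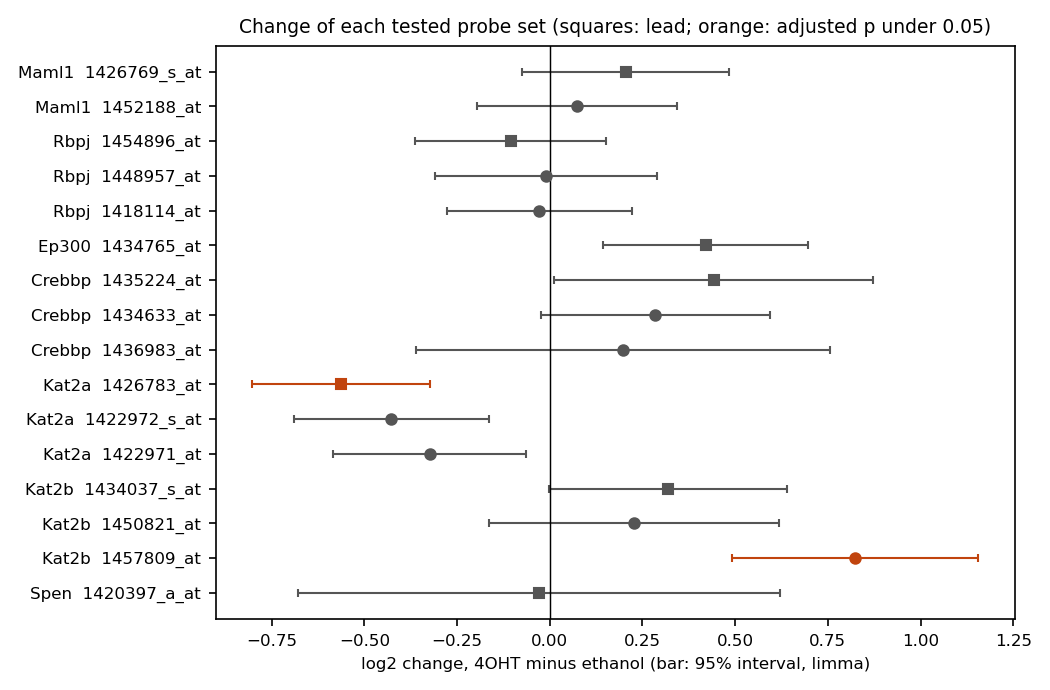
Log2 change, 4OHT minus ethanol, of the 16 tested probe sets, with limma's 95% interval from the fit of all probe sets. Squares are lead probe sets, circles the others, and orange marks an adjusted p under 0.05. The intervals of all 3 Kat2a probe sets lie below 0, and those of Ep300, the lead of Crebbp and Kat2b 1457809_at lie above 0. All others shown include 0.

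Spen, the RBPJ corepressor, had 1 probe set and the widest spread among the members. It read 8.21 and 7.89 in 4OHT cells, against 7.71 and 8.45 in ethanol cells, so that both 4OHT values lay between the ethanol values. The SD of the ethanol arrays was 0.52, where that of the other 6 tested members was between 0.031 and 0.24. The change was -0.029 ± 0.26 (95% interval -0.67 to 0.61, limma adjusted p = 0.957), the widest interval of any member.

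Further partners of RBPJ and Mastermind were read from lists of genes chosen for their roles. Among corepressors and partners of RBPJ, 20 of 24 listed genes were tested, with a median change of 0.02. Of these, 1 was higher (3.90% of all genes tested), 1 was lower (3.57% of all) and 18 did not pass. An unadjusted p under 0.05 was found for 4 of the 20, against 25.5% of all genes tested. L3mbtl3, a methyl-lysine reader that binds RBPJ, read 9.43 and 9.34 with 4OHT, against 8.70 and 8.84 with ethanol, and rose by 0.61 (limma adjusted p = 0.0296). Tle3, a Groucho-family corepressor, read 10.88 and 10.90 with 4OHT, against 11.48 and 11.60 with ethanol, and fell by 0.65 (limma adjusted p = 0.0229).

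The Mediator kinase module, which Mastermind recruits and which marks the Notch domain for turnover, had 7 tested genes and none was called by limma. An unadjusted p under 0.05 was found for 5, 4 with a change above 0 and 1 below, against 25.5% of all genes tested. The median change was 0.41. Med13, its scaffold subunit, read 9.79 and 9.72 with 4OHT, against 9.25 and 9.38 with ethanol (0.44, limma adjusted p = 0.0521). Cdk19, a paralog of the kinase Cdk8, had a change of 0.46 (limma adjusted p = 0.0846). Cdk8 itself, named after its value was seen, had one of -0.34 (limma adjusted p = 0.12). Ccnc and Med12l, also named after their values were seen, had changes of -0.18 each (limma adjusted p = 0.409 and 0.411). Med12 and Med13l, named after their values were seen too, had changes of 0.41 and 0.46 (limma adjusted p = 0.119 and 0.151). Changes of both signs were present, and the direction of the module as a whole was not tested.

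SAGA and ATAC are the complexes that hold GCN5 or PCAF. None of their 22 tested subunit genes was called by limma, and their list had a median change of 0.0020. Of the 22, 3 passed an unadjusted p of 0.05, against 25.5% of all genes tested. Sgf29, a reader of methylated histone H3, had a change of -0.33 (limma adjusted p = 0.107) and Supt3, a SAGA core subunit, one of -0.26 (limma adjusted p = 0.14).

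Among 14 other lysine acetyltransferase genes none was called by limma, and 5 had an unadjusted p under 0.05, against 25.5% of all genes tested. The median of this list was 0.16. Atat1, the alpha-tubulin acetyltransferase, had a change of 0.66 (limma adjusted p = 0.0633), and Kat6b, a MYST-family histone acetyltransferase, one of 0.39 (limma adjusted p = 0.145). These medians stand beside -0.01 over all genes tested and were not compared with it by a test.

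The T-cell targets of the complex were read from a further list. Of 18 tested, 10 were lower with 4OHT (3.57% of all genes tested), 1 was higher (3.90% of all) and 7 did not pass, with a median change of -0.70 and a range of -3.41 to 0.70. Dtx1, a ubiquitin ligase gene and standard readout of Notch, read 6.01 and 6.01 in 4OHT cells, against 9.41 and 9.43 in ethanol cells (limma adjusted p = 0.000506). The log2 change was -2.23 for Ptcra (pre-T-cell receptor alpha), -2.11 for Il2ra (interleukin-2 receptor alpha), -1.68 for Notch3, -1.44 for the feedback inhibitor Nrarp, -1.39 for the repressor Hes1 and -0.86 for Notch1, each called by limma. The gene of the list called higher was Rasgrp1, a Ras activator, by 0.55, which was named after its value was seen. Gata3, also named after its value was seen, had the highest change of the list, 0.70, and was not called (limma adjusted p = 0.0659). On the arrays where the 10 called targets were lower, no change of Maml1 or Rbpj passed the test. With 2 arrays in each group, this does not show that their levels stayed the same.

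**Figure D3:**
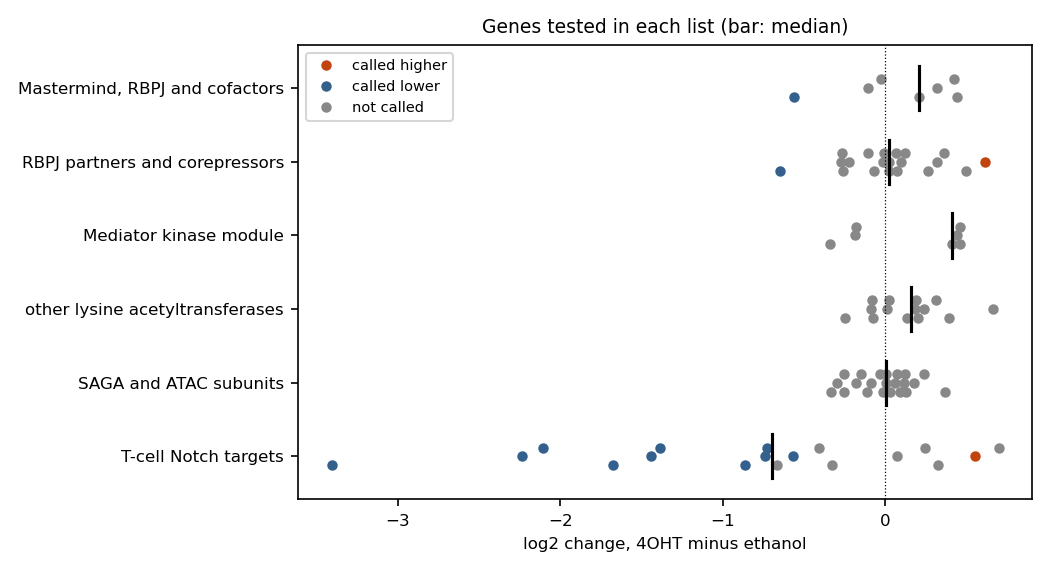
Log2 change, 4OHT minus ethanol, of each tested gene in 6 lists, with 1 point per gene (vertical offsets separate points only) and a black bar at the list's median. Orange genes were called higher, blue genes lower and grey genes were not called. Kat2a is the blue point among the members, and Notch targets reach -3.41.

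The genes of these lists whose values over the 4 arrays ran most like those of Maml1 were Atxn7 (Pearson r = 0.967) and Tada1 (r = 0.946), both SAGA subunit genes. For Rbpj they were the corepressor gene Ctbp2 (r = 0.988) and the ATAC subunit gene Zzz3 (r = 0.968). Each pair was picked as the highest of 81 tested genes in these lists, over only 4 arrays. An r at least as high as that of Atxn7 was found for 231 of the 11581 tested genes, and one at least as high as that of Ctbp2 for 67. They are a description only.

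The arrays correlated at r = 0.993 within each group and at 0.982 to 0.987 between groups, over the 20967 probe sets. Of 9 T-lineage markers with a probe set, 8 were above the testing level (Cd5 was not). The mean log2 level over all 9 was 10.73 and 10.82 with 4OHT, against 10.55 and 10.65 with ethanol. 2 of them (Cd8a and Ptprc) were called higher and 1 (Cd3g) lower. The mean over markers of other cell types was 4.50 to 4.55 with 4OHT and 4.56 to 4.65 with ethanol for B cells (4 markers), and 5.01 to 5.04 with 4OHT and 4.97 with ethanol for myeloid cells (5 markers). For stromal or epithelial cells (5 markers) it was 5.05 to 5.23 with 4OHT and 5.24 to 5.29 with ethanol, and the erythroid marker Alas2 averaged 3.46. The stromal mean hides Pdgfrb, which lay well above the testing level. Pdgfrb read 8.14 and 8.57 with 4OHT, against 8.65 and 8.65 with ethanol (-0.29, limma adjusted p = 0.295). Epcam, also tested, had a change of -0.23 (limma adjusted p = 0.178). Of the 15 markers of other cell types with a probe set, 6 were tested and none was called by limma, with 2 at an unadjusted p under 0.05, and 9 lay below the testing level. The myeloid marker Itgam, not tested, read 4.83 and 4.79 with 4OHT, against 4.10 and 3.96 with ethanol. Cd14, tested, had a change of -0.37 (limma adjusted p = 0.0616). The part of such cells in the results was not tested. In bulk RNA, fewer cells expressing a gene and less RNA per cell cannot be told apart. The log2 difference between the 3′ and 5′ probe sets of 18S ribosomal RNA moved with the groups, at 0.90 and 0.82 with 4OHT and 0.051 and 0.32 with ethanol. That of Actb was 0.43 and 0.45 with 4OHT and 0.40 and 0.49 with ethanol. For Gapdh it was -0.030 and -0.033 with 4OHT and -0.068 and 0.030 with ethanol. The values of these messenger RNAs overlapped between the groups. The part of RNA quality in the changes of Kat2a, Kat2b, Ep300 and Crebbp was not tested.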

How the data were processed

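The authors deposited log2 expression levels. The submitters' processing notes name RMA, a method that subtracts background, brings all arrays to 1 signal distribution and combines a set's probes into 1 value. No source used here states its version. The number of arrays, 2 in each group, limits the precision.

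Of 45101 probe sets, 64 were controls, 34945 named exactly 1 gene by the platform annotation, 932 named several and 9224 were controls or unnamed here. No symbol changed on a check against RefSeq (GRCm38.p6), and 204 probe sets naming 1 gene had no match. The comparison used limma 3.58.1 (R 4.3.3) with lmFit and eBayes, no block, and Benjamini-Hochberg adjustment. A run on simulated data covered only the limma fit, and not the choice of probe set, the filter or the alternatives. The alternatives were other filters, scalings, variance priors, thresholds and choices of probe set, the replicate number as a block, and each array left out.

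The genes named are all members, up to 4 called genes of each list or else the 2 with the lowest adjusted p, 6 Notch targets, and the 2 list genes most like Maml1 or Rbpj. Members and lists were chosen with earlier results of these data known.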

Additional observations from a re-analysis of the deposited data

How the results depend on the processing

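Kat2a was called lower in all 9 alternative fits that kept all 4 arrays, at an adjusted p under 0.05 (changes from -0.58 to -0.44). Directions below turned only for changes that were not called. With 1 array left out, genes called higher numbered 9 to 125 (452 with all arrays) and lower 12 to 66 (413), probe sets called higher 0 to 14 (509) and lower 0 to 11 (333), and no member gene or member probe set was called. These fits have 1 residual degree of freedom. In them the change of Spen lay between -0.40 and 0.34, that of Maml1 1452188_at between -0.0028 and 0.15, of Rbpj 1448957_at between -0.12 and 0.10, of Rbpj 1418114_at between -0.087 and 0.032, and of Crebbp 1436983_at between -0.12 and 0.51. That of the lead Maml1 probe set lay between 0.12 and 0.29 and that of Kat2b 1450821_at between 0.016 and 0.44. The replicate block gave 1104 genes higher and 1031 lower, 1629 probe sets higher and 1202 lower, 4 member genes (Kat2a, Ep300 at an adjusted p of 0.0185, Crebbp at 0.0129 and Kat2b at 0.0487) and 5 member probe sets. The block fit too has 1 residual degree of freedom. Deviations of same-numbered arrays correlated at 0.318 over probe sets. With 2 pairs, and no label that ties them, the numbers are not shown to pair the samples. An intensity trend gave 636 genes lower, 909 probe sets higher and 778 lower, and 2 member genes, Ep300 (adjusted p = 0.0435) joining Kat2a. With a robust prior too there were 679 genes higher and 666 lower, 943 probe sets higher and 804 lower, and 2 member genes. A filter at the 60th percentile gave 581 probe sets lower and 1 member probe set, since Kat2b 1457809_at was then not tested. At an adjusted p under 0.1 there were 853 genes higher and 824 lower, 1168 probe sets higher and 923 lower, and 2 member genes. At an adjusted p under 0.01 there were 24 genes higher and 22 lower, 6 probe sets higher and 7 lower, and 0 member genes or probe sets. Beyond the samples and thresholds removed, the cause was not tested. The median change over tested genes moved by under 0.1 under both scalings, to -0.021 and -0.034.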
